A study of Mus musculus with 6 samples.

Results

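The cerebellins, the delta receptor gene Grid1 and the neurexins Nrxn2 and Nrxn3 belong to families of proteins that bridge synapses. One such bridge spans the synapse between parallel fibres and Purkinje cells, and not every gene named here is known as part of it. The 7 genes Cbln1, Cbln2, Cbln3, Cbln4, Grid1, Nrxn2 and Nrxn3 were chosen by name from 55098 genes in the deposited table. No measured value entered the rule, but earlier results of these data were known when the 7 genes and the lists used below were chosen. All 7 were among the 17142 genes that passed the filter on low counts. The study sequenced RNA of the whole cerebellum from male mice, taken at postnatal day 60. One group of 3 mice is labelled Slc39a14 wildtype (WT, animals 1, 3 and 5) and the other group of 3 is labelled Slc39a14 knock-out (KO, animals 2, 4 and 6). Slc39a14 encodes ZIP14, a metal transporter that carries manganese, and the title of the series names the mouse as a model of childhood-onset dystonia parkinsonism induced by manganese. The sources used here give neither the strain, nor the kind of allele, nor whether the WT mice were littermates. Each animal gave 1 library, with 13805997 to 15788135 counts on genes.

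Granule cells send their axons, the parallel fibres, onto the dendrites of Purkinje cells. Granule cells release cerebellin, a small protein of the C1q family, which binds neurexin on the axon terminal and a delta-type glutamate receptor on the Purkinje cell spine and so holds the sides of the synapse together. Loss of Cbln1 in mice is known to leave many Purkinje cell spines without a presynaptic partner and to cause ataxia.

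In these libraries none of the 7 genes differed between KO and WT beyond the spread between animals. Their differences were all below 0, from -0.018 to -0.41 on the log2 scale (KO minus WT), and a value below 0 was held by 51.2% of all genes tested. By the edgeR quasi-likelihood test with Benjamini-Hochberg adjustment 0 of the 7 passed at an adjusted p of 0.05, against 0.0467% of all genes (8 of 17142). At an unadjusted p of 0.05 the count was also 0 of 7, against 2.75% of all genes, and DESeq2 and limma-voom also gave 0 by either threshold. In 0 of the 7 did the KO and WT values not overlap, while 7.26% of all tested genes had groups that did not overlap. The authors' deposited table likewise calls none of them (0 of 7), with log2 fold changes from -0.41 (Cbln2) to -0.017 (Nrxn3).

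**Figure D1:**
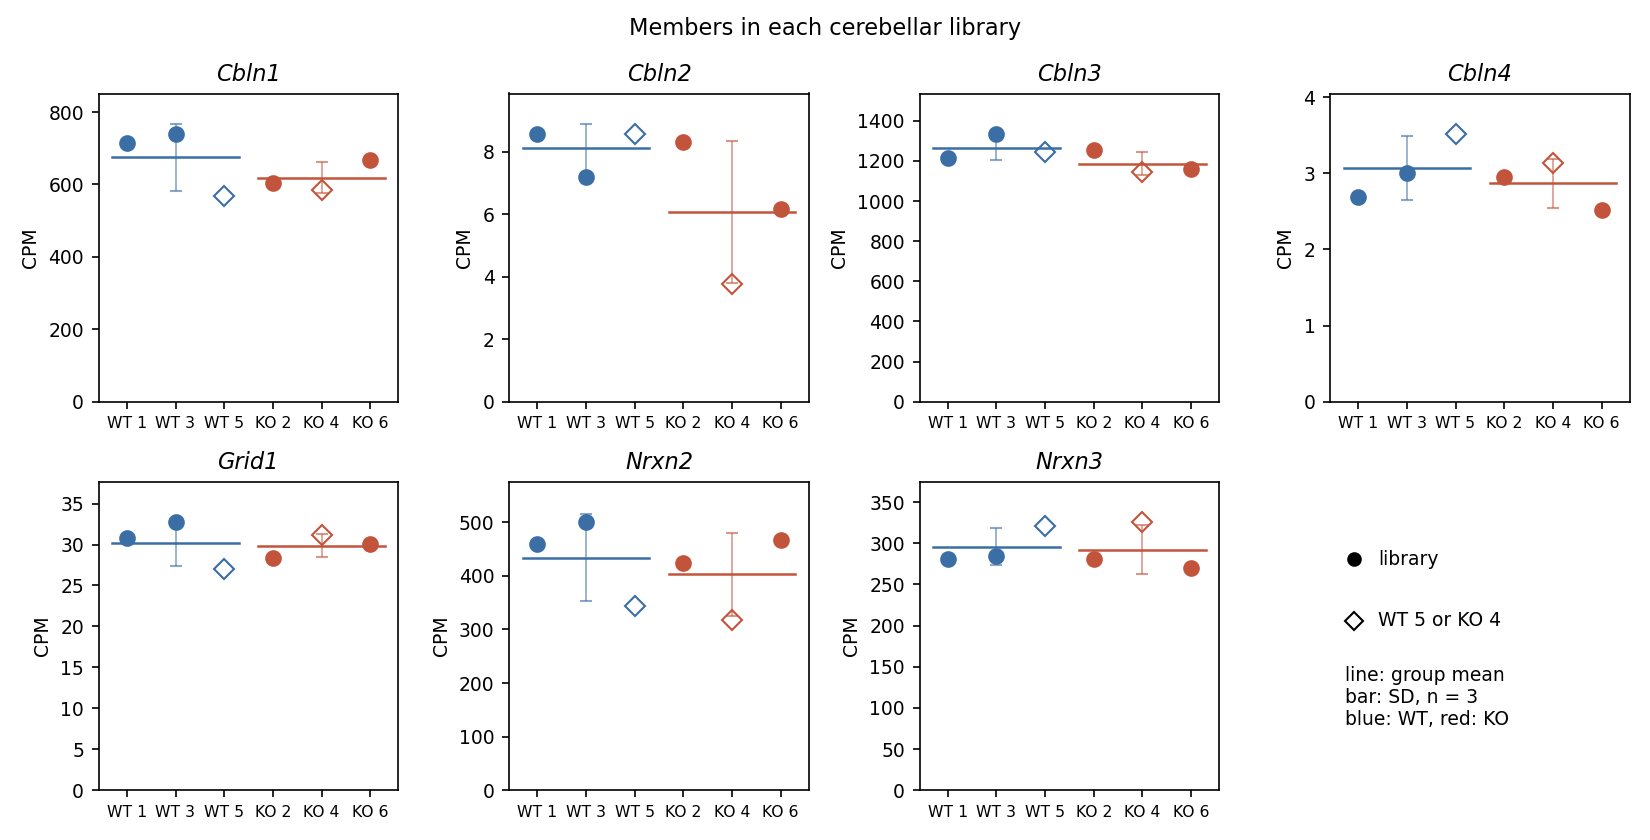
Level of each of the 7 genes in CPM (counts scaled to library size, on axes that start at 0) in the WT (blue) and KO (red) libraries, with the group mean and its SD (n = 3 each). The KO and WT points overlap in every panel, and the open symbols, WT 5 and KO 4, are the lowest pair for Nrxn2 and the highest pair for Nrxn3.

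The targeted gene and the libraries were examined first. For Slc39a14, WT 1, 3 and 5 held 582, 646 and 598 counts while KO 2, 4 and 6 held 654, 572 and 640, so that its gene count did not tell the groups apart (log2 fold change -0.0035, SE 0.11). Such a whole-gene sum cannot check a short deletion, and the directions below rest on the labels. On the first principal component of 1000 genes (29.6% of the variance) WT 5 (25.9) and KO 4 (15.4) stood apart from the other libraries (-15.2 to -4.80). Results that rest on this pair are given with and without it. On the second component (26.9% of the variance) WT 1, 3 and 5 stood at 10.3, 14.5 and 17.4. There KO 2, 4 and 6 stood at -16.7, -17.6 and -7.84, apart from WT, and this split was not tested. Markers of cerebellar cells were abundant, with summed FPKM (fragment counts scaled to gene length and library total, a level per length) of 1278 to 1462 for 15 granule cell genes and 1426 to 1681 for 14 Purkinje cell genes. Of 5 forebrain genes 3 lay under a mean of 1 FPKM (KO 4 differed, as given with Cbln2). The forebrain genes Ppp1r1b and Neurod6 were at means of 31.9 and 2.63 FPKM. Of 7 brainstem genes 6 lay under a mean of 1 FPKM, and Slc18a2 was at 1.40. The brainstem genes Hoxb5 and Hoxa5 had no count in any library. Choroid plexus genes summed to 153 to 640.5 FPKM in WT and 516 to 1563 FPKM in KO, and 10 microglia genes to 56.5 to 60.2 in WT and 71.9 to 101 in KO. All 10 genes of each list were higher in KO. At an unadjusted p of 0.05 (edgeR) 9 choroid plexus and 5 microglia genes passed, against 2.75% of all genes, and 0 passed after adjustment. The part of these last 2 lists in the results was not tested.

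Cbln3 and Cbln1 were among the most abundant transcripts of the tissue. Cbln3 encodes a cerebellin that is secreted in complex with Cbln1, and both are made by granule cells. In FPKM, as deposited, the Cbln3 level was 249 ± 12.3 in WT and 231 ± 11.1 in KO (SD, n = 3 each), which placed its mean at rank 56 of 22046 protein-coding genes. The Cbln1 level was 213 ± 28.1 FPKM in WT and 193 ± 13.7 FPKM in KO, with rank 69. Together they made 99.1% to 99.5% of the summed FPKM of the 4 cerebellins in each library. Cbln3 lay above Cbln1 in 6 of 6 libraries, although their ranges over libraries overlapped (223 to 263 FPKM for Cbln3 and 181 to 233 FPKM for Cbln1).

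Nrxn2 was next, at 30.1 ± 5.51 FPKM in WT and 27.7 ± 5.26 in KO, followed by Nrxn3 at 22.5 ± 1.85 and 21.97 ± 2.25 FPKM. Nrxn2 lay above Nrxn3 in 4 of 6 libraries by these values. Cbln1 was on average 7.03 times as high as Nrxn2, with no overlap of ranges. Grid1 was at 4.85 ± 0.442 FPKM in WT and 4.75 ± 0.236 in KO, Cbln2 at 2.69 ± 0.265 and 1.99 ± 0.740, and Cbln4 at 1.01 ± 0.146 and 0.938 ± 0.105. The ranges of Nrxn3, Grid1, Cbln2 and Cbln4 did not overlap, and these 4 genes kept this order in 6 of 6 libraries. The gene length behind FPKM was the value in the deposited table. For Nrxn2 it was 13812 bases, while its longest annotated transcript has 6667 bases in GENCODE vM21. For Nrxn3 these lengths were 12605 and 7922 bases, and for Cbln1 3037 and 2800 bases. With the transcript lengths, an alternative chosen after seeing the data, Nrxn2 lay above Nrxn3 in 6 of 6 libraries without overlap of ranges, Cbln1 was 3.68 times as high as Nrxn2, and Cbln3 lay above Cbln1 in 5 of 6 libraries, with WT 1 turned. The order of the other genes was the same by both lengths, in 6 of 6 libraries. A level in whole tissue does not tell fewer cells of a type from less RNA per cell.

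**Figure D2:**
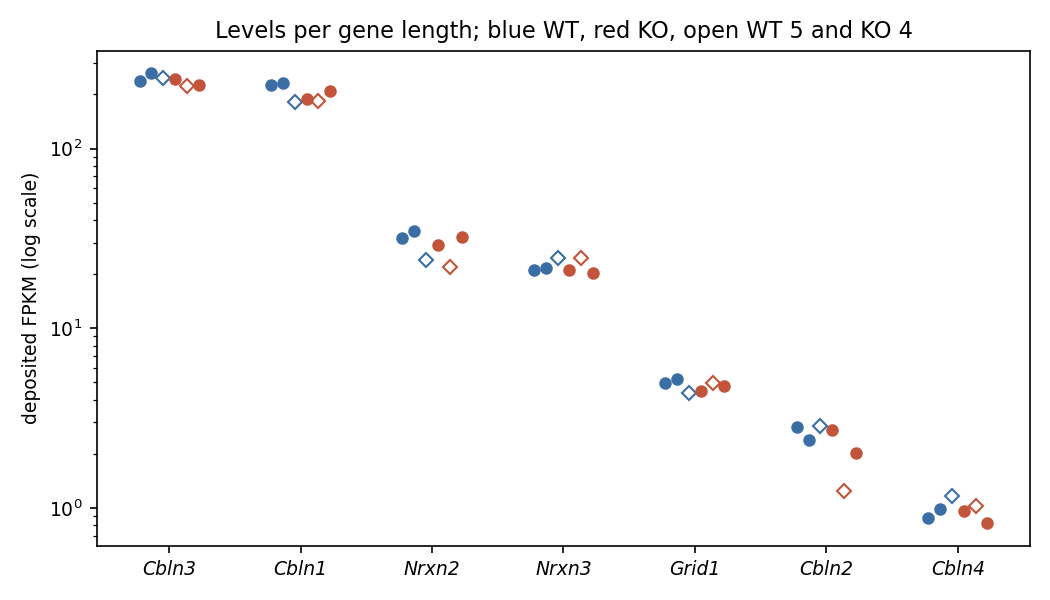
Deposited FPKM of the 7 genes on a log axis, ordered by mean, with WT libraries in blue, KO libraries in red and WT 5 and KO 4 as open symbols. Cbln3 and Cbln1 lie between 181 and 263 FPKM, the neurexins between 20.3 and 34.6, and Grid1, Cbln2 and Cbln4 between 0.823 and 5.25.

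Cbln1 (ENSMUSG00000031654, chromosome 8, 87468405 to 87472609, minus strand, build GRCm38.p6) was counted 9849, 11599 and 7757 times in WT 1, 3 and 5, against 9598, 8387 and 9305 times in KO 2, 4 and 6. After TMM scaling the WT libraries stood at 715, 740 and 569 CPM and the KO libraries at 604, 586 and 668 CPM. WT 1 and WT 3 were the highest libraries and WT 5 the lowest of all 6, so that the KO values lay inside the WT range. KO differed from WT by a log2 fold change of -0.12 (SE 0.12; edgeR adjusted p = 1.0). Its 95% interval, -0.38 to 0.13, allows a KO level from 0.767 to 1.10 times that of WT. The spread between WT animals was 13.7% of their mean, while counting error alone gives 1.01%. Without WT 5 and KO 4 the log2 fold change was -0.19 with an unadjusted p of 0.0444 and an adjusted p of 1.0 (edgeR).

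A long non-coding gene, Gm2694, lies across Cbln1 on the opposite strand (87460469 to 87525554) and covers all 4205 bases of it. The 3 WT libraries held 1457, 1565 and 1267 counts of Gm2694, and the KO libraries 1489, 1304 and 1241 (difference on the log2 scale -0.12, SE 0.093; edgeR adjusted p = 1.0). The strand setting of the counting is unknown here, so reads of Cbln1 and Gm2694 may have been mixed or left out where they overlap.

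Cbln3 (ENSMUSG00000040380, chromosome 14, 55878913 to 55884392, minus strand) was counted 16771, 20934 and 16957 times in the WT animals, against 19948, 16391 and 16182 times in the KO animals. These are 1217, 1336 and 1244 CPM for WT, and 1255, 1144 and 1162 CPM for KO. WT 3 was the highest library and KO 4 the lowest, and KO 2 lay above WT 1 and WT 5. KO minus WT came to -0.093 on the log2 scale (SE 0.088, 95% interval -0.29 to 0.10; edgeR adjusted p = 1.0). This was the tightest estimate of the 7 genes, and its interval allows a KO level from 0.819 to 1.07 times that of WT. Cbln3 is on the chromosome of the targeted gene, 14.4 Mb from Slc39a14. Grid1 is on it too, 34.7 Mb away on the same side, and neither passed.

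Cbln3 protein needs Cbln1 for its secretion, so the balance of the pair was compared within libraries, where the scaling between libraries has no effect. The log2 ratio of Cbln3 to Cbln1, from counts per kilobase, was 0.088, 0.17 and 0.45 in WT 1, 3 and 5 and 0.38, 0.29 and 0.12 in KO 2, 4 and 6. The KO values lay inside the WT range. The KO minus WT difference was 0.024 (WT 0.24 ± 0.19, KO 0.26 ± 0.13, SD, n = 3 each; exact two-sided permutation p = 0.9, Benjamini-Hochberg 0.9 over 4 ratios). With 3 animals per group this exact test cannot go below p = 0.1.

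Cbln1 and Cbln3 were then set against markers of the granule cells that make them. Of 15 markers 14 had a log2 fold change below 0 (median -0.11, over all genes -0.0036), and 0 passed by edgeR, with 0 also at an unadjusted p of 0.05. Gabra6, a GABA receptor subunit of granule cells, was at -0.064 and the transcription factor Zic1 at -0.11. The 15 markers summed to 1353 to 1462 FPKM in WT and 1278 to 1297 FPKM in KO, a sum that the most abundant markers dominate. How often such sums do not overlap was not computed, so the gap between these ranges is not read as a difference. Of the 15 single markers 2 had groups that did not overlap (13.3%, against 7.26% of all tested genes). Set against the mean log2 CPM of these markers in the same library, the KO minus WT difference of Cbln1 was -0.010 and that of Cbln3 was 0.014 (exact permutation p = 0.9 and 0.7, n = 3 each; Benjamini-Hochberg 1.0 over the 7 genes). Relative to these markers the group means of both genes differed by less than the spread between animals, with SDs of 0.12 (WT) and 0.042 (KO) for Cbln1 and 0.091 and 0.089 for Cbln3.

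Cbln2 encodes the cerebellin closest to Cbln1 in sequence and is best known from synapses outside the cerebellar cortex. Cbln2 (ENSMUSG00000024647, chromosome 18, 86711110 to 86718283, plus strand) was counted 118, 113 and 117 times in WT 1, 3 and 5, against 132, 54 and 86 times in KO 2, 4 and 6. Scaled, the WT libraries stood at 8.57, 7.21 and 8.58 CPM and the KO libraries at 8.30, 3.77 and 6.18 CPM. KO 2 lay inside the WT range, KO 6 below it, and KO 4 below every other library. The log2 fold change was the farthest from 0 of the 7 genes, at -0.41 (SE 0.27, 95% interval -1.01 to 0.19, edgeR adjusted p = 1.0). The KO libraries spread by 37.3% of their mean against 9.69% in WT, where counting error gives 10.5% and 9.29%. The estimate moved with single libraries, from -0.71 without KO 2 (unadjusted p = 0.0274, edgeR adjusted p = 1.0) to -0.16 without KO 4, and it was -0.11 without WT 5 and KO 4.

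KO 4, the library lowest in Cbln2, was also lowest in several markers of neurons of the cerebellar nuclei. The transcription factor gene Lhx9 was counted 17 times in KO 4 and 127 to 192 times in the other 5 libraries. Slc17a6, a vesicular glutamate transporter, was counted 417 times in KO 4 and 585 to 1063 times in the others. Both were named after their values were seen. Of 9 tested markers of these neurons 8 were below 0 (median -0.074), with 0 called by edgeR and 0 at an unadjusted p of 0.05, and their summed level was 217 FPKM in KO 4 against 244 to 271 FPKM elsewhere. KO 4 also held 79 counts of Tbr1, a gene of this list and of the forebrain list, against 3 to 15 in the other 5 libraries. The part of these differences in the Cbln2 value was not tested.

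Cbln4, a cerebellin known mainly from forebrain synapses, was near the lower end of what these libraries can measure. Cbln4 (ENSMUSG00000067578, chromosome 2, 172036233 to 172043466, minus strand) was counted 37, 47 and 48 times in the WT animals, against 47, 45 and 35 times in the KO animals. The libraries were at 2.69, 2.999 and 3.52 CPM in WT and 2.96, 3.14 and 2.51 CPM in KO. The groups overlapped, with KO 6 below every WT library and WT 5 above every KO library. The spread of 13.8% in WT and 11.3% in KO was no larger than the 15.1% and 15.4% that counting error gives. A difference of -0.095 on the log2 scale (SE 0.25, 95% interval -0.64 to 0.45; edgeR adjusted p = 1.0) turned to 0.016 without WT 5. Without WT 5 and KO 4 the log2 fold change was -0.052. The 95% interval over all libraries allows a KO level from 0.640 to 1.37 times that of WT, so differences inside it are not excluded.

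How far reads can be told apart between the cerebellins depends on their likeness in sequence. Translated from GENCODE vM21, the mouse proteins have 193 (Cbln1), 224 (Cbln2), 197 (Cbln3) and 198 (Cbln4) residues. Of the residues of the shorter protein, 80.3% were identical between Cbln1 and Cbln2, 71.0% between Cbln1 and Cbln4 and 57.5% between Cbln1 and Cbln3. The longest run of bases shared by the longest transcripts of any pair was 13 to 21 bases. Relative to Cbln1, the minor cerebellins made a small share in both groups, with Cbln2 at 1.29% ± 0.282 of the Cbln1 FPKM in WT and 1.03% ± 0.387 in KO, and Cbln4 at 0.488% ± 0.139 and 0.489% ± 0.0863 (SD, n = 3 each). Their log2 ratios to Cbln1 differed by -0.37 and 0.023 between KO and WT (exact permutation p = 0.4 and 0.9).

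Grid1 encodes GluD1, a delta receptor that binds cerebellins and is found in forebrain and in cerebellar interneurons. Grid1 (ENSMUSG00000041078, chromosome 14, 34820108 to 35583379, plus strand) was counted 425, 513 and 369 times in the WT animals, against 451, 447 and 418 times in the KO animals. The levels were 30.9, 32.7 and 27.1 CPM for WT, and 28.4, 31.2 and 30.0 CPM for KO. The WT libraries were the highest and the lowest of the 6, with the KO libraries between them. KO and WT differed by -0.018 on the log2 scale (SE 0.12, 95% interval -0.28 to 0.25; edgeR adjusted p = 1.0), so the data allow a KO level from 0.822 to 1.19 times that of WT. The sign was positive without WT 3 (0.049) or without KO 2 (0.019), and the log2 fold change was -0.12 without WT 5 and KO 4. Of the 13 markers of molecular layer and Golgi interneurons, 8 were below 0 (median -0.013) and 0 passed by edgeR, with 0 at an unadjusted p of 0.05. Gad1, which makes GABA, was at 0.041 and the vesicular GABA transporter Slc32a1 at 0.079.

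Neurexins bind cerebellin only when a short cassette exon, known as splice site 4, is kept in the transcript. The deposited counts are sums over the whole gene, so they do not show how many transcripts kept this exon in either group.

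Nrxn2 varied more between animals than any other abundant member. Nrxn2 (ENSMUSG00000033768, chromosome 19, 6418731 to 6544169, plus strand) was counted 6329, 7840 and 4681 times in WT 1, 3 and 5, against 6730, 4552 and 6503 times in KO 2, 4 and 6. The CPM values were 459, 500.3 and 343 in WT and 423, 318 and 467 in KO. WT 5 and KO 4 were the lowest libraries by far, and the other 4 lay between 423 and 500.3 CPM. The difference, -0.11 on the log2 scale (SE 0.17, 95% interval -0.48 to 0.26; edgeR adjusted p = 1.0), turned positive without WT 3 (0.0096) or without KO 4 (0.039). The spread was 18.7% of the mean in WT and 19.0% in KO, against 1.26% and 1.30% from counting error. On the opposite strand, overlapping Nrxn2, lie Gm14964 (811 counts in all libraries together), Slc22a12 (93) and Gm14967 (2), few beside the counts of Nrxn2.

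Nrxn3 (ENSMUSG00000066392, chromosome 12, 88722876 to 90334935, plus strand) was counted 3862, 4467 and 4383 times in the WT animals, against 4466, 4663 and 3752 times in the KO animals. The levels were 280, 285 and 321 CPM for WT, and 281, 326 and 269 CPM for KO. Here WT 5 and KO 4 were the highest libraries. KO against WT gave -0.018 on the log2 scale (SE 0.10, 95% interval -0.25 to 0.22; edgeR adjusted p = 1.0), with a positive sign without WT 5 (0.049), KO 2 (0.010) or KO 6 (0.037). With WT 5 and KO 4 both left out the log2 fold change was -0.036. The log2 ratio of Nrxn3 to Nrxn2 was -0.58, -0.68 and 0.037 in WT 1, 3 and 5 and -0.46, 0.17 and -0.66 in KO 2, 4 and 6. Only in WT 5 and KO 4 was Nrxn3 above Nrxn2 by the deposited gene lengths, and by the transcript lengths it was above in 0 of 6 libraries. A change of length moves all 6 ratios alike and leaves the comparison of groups as it is. The group means differed by less than the spread between animals (difference 0.090, exact permutation p = 0.6, Benjamini-Hochberg 0.9). Their difference was 0.070 without WT 5 and KO 4.

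**Figure D3:**
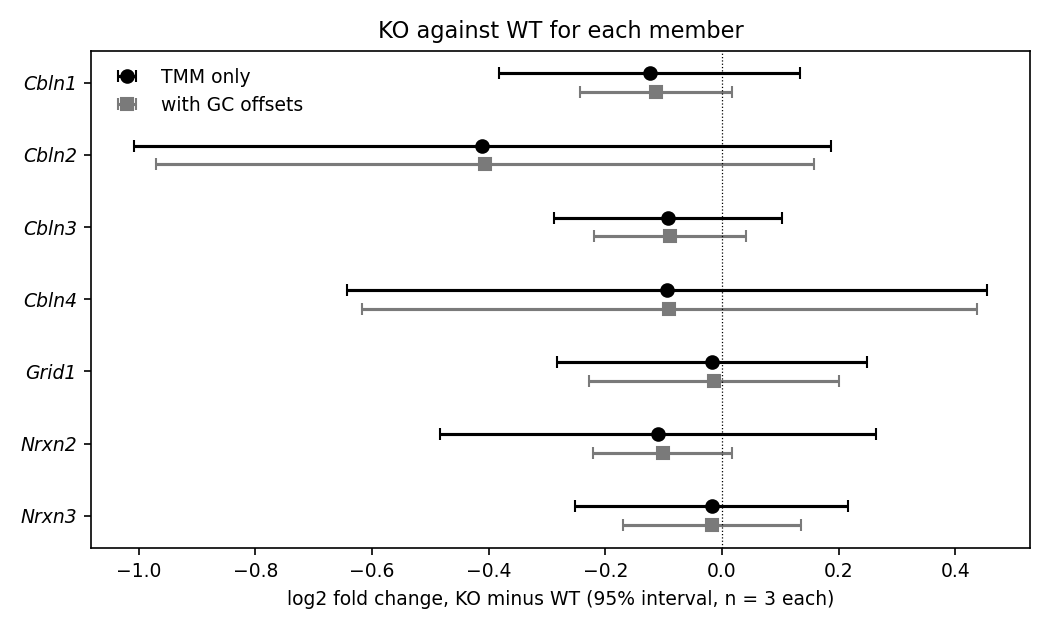
Log2 fold change of KO against WT with its 95% interval (edgeR, n = 3 each) for the 7 genes, with TMM scaling alone (black circles) and with a further offset for GC content in each library (grey squares). Every interval includes 0, and the interval of Nrxn2 is narrower with the offset (-0.22 to 0.017) than without it (-0.48 to 0.26).

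The neurexins and Cbln1 moved with a feature of the libraries that was not the genotype. In WT 5 and KO 4 together, the mean log2 CPM relative to the other 4 libraries was -0.48 for Nrxn2, -0.24 for Cbln1, 0.21 for Nrxn3 and 0.25 for Cbln4. Both libraries lay below the other 4 for Nrxn2 and Cbln1 and above them for Nrxn3 and Cbln4, and they were not on 1 side for Cbln2 (-0.39), Cbln3 (-0.057) and Grid1 (-0.067). The spread of Cbln4 was, however, no larger than counting error gives. The longest transcript of Nrxn2 has a GC content of 62.4%, above 98.6% of the tested genes, and that of Cbln1 has 56.3%, while the other 5 members lie between 47.5% and 49.9%.

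Across 16913 tested genes with a known transcript, the same offset of WT 5 and KO 4 fell with GC content (Spearman's rho -0.68 across genes, and -0.83 among 10479 genes of at least 10 CPM). Genes are not independent replicates, and this is a description of the libraries. From the lowest to the highest of 5 equal bins of GC content the median offset ran from 0.30 to -0.31. Nrxn2 and Cbln1 followed this slope, while Cbln2, with 48.5% GC, was lower than the median of its bin, and Cbln4 and Nrxn3 were higher. The KO minus WT difference had a rho of 0.0044 with GC over the same genes.

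**Figure D4:**
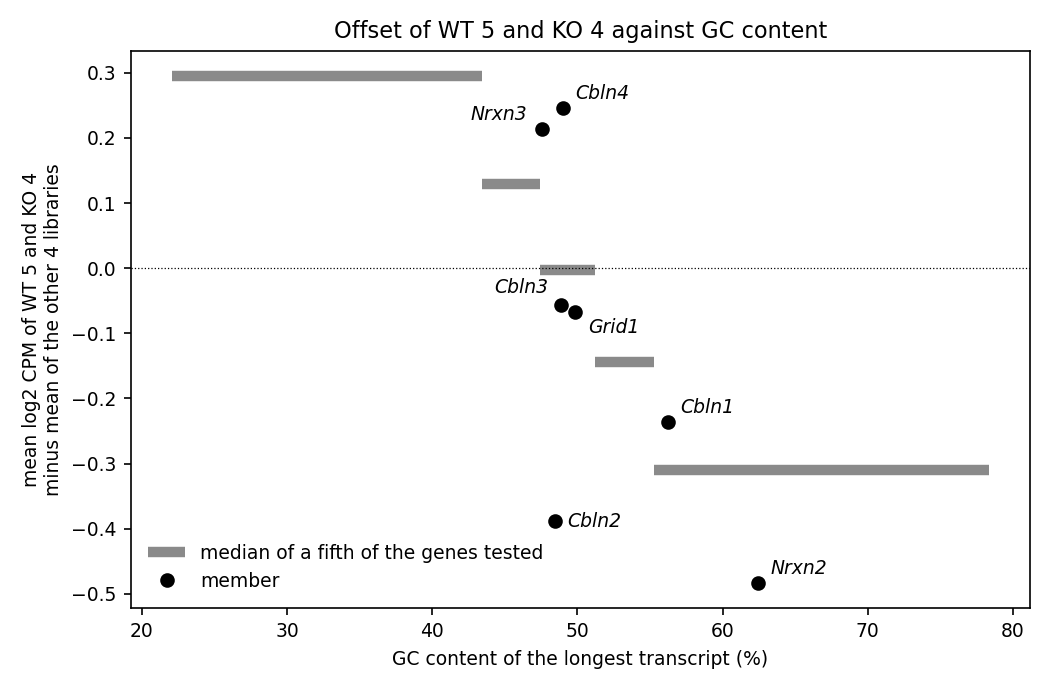
Mean log2 CPM of WT 5 and KO 4 minus that of the other 4 libraries, against the GC content of the longest transcript, for the 7 genes (points) and as medians of 5 equal bins of the tested genes (bars spanning the GC range of each bin). The medians fall from 0.30 to -0.31 with rising GC, and Nrxn2 (62.4% GC) lies at -0.48.

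With an offset for GC content in each library, an alternative chosen after seeing the data, the distance of WT 5 and KO 4 from the others shrank to -0.050 for Nrxn2 and 0.018 for Cbln1, and it stayed at 0.16 for Nrxn3, 0.25 for Cbln4 and -0.41 for Cbln2. The standard error of the KO against WT comparison fell from 0.17 to 0.054 for Nrxn2 and from 0.12 to 0.059 for Cbln1. The offset was fitted to these same libraries, so for genes on the GC slope both changes are built into it. They are not a test of GC content. The log2 fold change of Nrxn2 was then -0.10 (95% interval -0.22 to 0.017, unadjusted p = 0.0859, edgeR adjusted p = 0.926), with every KO library below every WT library, as groups did not overlap in 10.9% of all genes tested with this offset. For Cbln1 it was -0.11 (95% interval -0.24 to 0.017, unadjusted p = 0.0823, edgeR adjusted p = 0.926). Again 0 of the 7 passed by edgeR, with 0 at an unadjusted p of 0.05, while 21 of all 17142 genes passed.

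None of the genes that work with the bridge passed the test. Of 43 related genes listed by role, 41 were tested, 24 of these were below 0 (median -0.030, over all genes -0.0036), and 0 passed by edgeR, with 0 at an unadjusted p of 0.05. The related genes whose groups did not overlap were 5 of 41 (12.2%, against 7.26% of all tested genes). They are named here after their values were seen. Magi2, a scaffold protein, was at -0.074, the neurexin-binding adaptor Apba1 at -0.16, the neurexin ligands Lrrtm1 and Dag1 at -0.24 and -0.10, and C1ql2, a C1q protein of low level (0.261 ± 0.0937 FPKM in WT and 0.458 ± 0.101 in KO), at 0.84.

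On the Purkinje cell side, 8 genes listed as receptor partners in Purkinje cells, not as partners of Grid1, were tested. Of these, 5 were above 0 and 3 below (median 0.043). Homer3, a scaffold of Purkinje cell spines, was at 44.1 ± 5.54 FPKM in WT and 45.9 ± 6.65 in KO (difference on the log2 scale 0.071, SE 0.13), and the postsynaptic scaffold Shank1 at 39.3 ± 9.22 and 40.7 ± 7.76 (0.063, SE 0.18; SD, n = 3 each). Purkinje cell markers were likewise mostly above 0, with 10 of 14 (median 0.084), and 0 passed by edgeR, with 0 at an unadjusted p of 0.05. Pvalb, a calcium buffer, was at 0.086 and Car8, a protein that binds the IP3 receptor, at 0.095.

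Of 5 presynaptic partners of neurexins 3 were below 0 (median -0.082). Lin7a, a scaffold protein, was at 36.7 ± 3.44 FPKM in WT and 33.2 ± 2.53 in KO (log2 fold change -0.13, SE 0.10), and Apba1 at 36.3 ± 0.352 and 32.2 ± 2.22 (-0.16, SE 0.089). Among 19 tested ligands that compete for or share neurexins, 13 were below 0 (median -0.041). The calsyntenins Clstn1 and Clstn3 were the most abundant of them, at 167 ± 19.4 and 128 ± 14.2 FPKM in WT and 154 ± 23.0 and 125 ± 12.6 FPKM in KO (log2 fold changes -0.10 and -0.030, SE 0.13 and 0.11). By the deposited gene lengths, the mean of Clstn1 thus stood between those of Cbln1 and the neurexins.

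The related C1q organisers and their receptors gave 3 values above and 3 below 0 among 6 tested. Their adhesion receptors Adgrb1 and Adgrb2 were at -0.036 and 0.054 (SE 0.17 each). The RNA-binding proteins that regulate splicing of neurexins, among them at splice site 4, are encoded by Khdrbs1, Khdrbs2 and Khdrbs3. Khdrbs1 was at 18.4 ± 2.35 FPKM in WT and 18.0 ± 1.73 in KO (log2 fold change -0.010, SE 0.12) and Khdrbs3 at 4.51 ± 0.344 and 4.29 ± 1.05 (-0.059, SE 0.18). Khdrbs2 was lower, at 0.644 ± 0.0620 and 0.732 ± 0.0683 FPKM (0.20, SE 0.18).

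The genes whose levels over the 6 libraries were most like each member were sought among about 10157 protein-coding genes of at least 10 CPM by Pearson's r of log2 CPM, as a description over 6 libraries that share depth and GC content. For Nrxn2 these were Ap1s1, Rnf19b and Upf1 (r 0.999, 0.999 and 0.996), and 1182 genes had r over 0.9. For Nrxn3 they were Ttll7, Ppp1cb and Yipf6 (r 0.999, 0.998 and 0.998), with 915 genes over 0.9. Patterns like those of the neurexins were thus common. Fewer genes were like Cbln1 (352 over 0.9; Trim65, Fads6 and Sobp, r 0.995, 0.994 and 0.993) and Cbln4 (371; Rala, Pggt1b and Frs2, r 0.990, 0.986 and 0.986). For Cbln4 such likeness may rest on counting error, which was at least as large as its spread. The rarest patterns were those of Cbln3 (30 genes; Magi1, Terf2 and Rapgef2, r 0.996, 0.979 and 0.978), Grid1 (35; Trpm2, Cwc25 and Rfc2, r 0.975, 0.972 and 0.967) and Cbln2 (72; Tceanc2, Sbf2 and Dhx35, r 0.977, 0.977 and 0.970).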

How the data were processed

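Whole cerebellum RNA was isolated with TRIZOL, and a company built the libraries, per the labels' protocols. The submitters' processing notes name HISAT2, DESeq2 and the build GRCm38.p6. The counting program, its strand setting and the read length were not given in the sources used here. Raw counts per gene, in whole numbers, were deposited for each library. The deposited FPKM columns are those counts divided by the listed gene length and a library total (within 0.1% for 100% of values above 0). The authors deposited their group means as a scaled signal, and their comparison as log2 fold changes and p-values.

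The titles gave each library its group and animal number. The main test was that of edgeR 4.0.16 under R 4.3.3 (quasi-likelihood F test, TMM factors 0.990 to 1.01, filterByExpr, Benjamini-Hochberg over 17142 genes, threshold 0.05). CPM values are TMM-normalized, and log2 CPM used a prior count of 2. One count was worth 0.0633 to 0.0724 CPM. Each SE was derived from the F statistic. The edgeR p-values set each difference between KO and WT against the spread between animals, which is estimated partly from all genes tested. Those of the permutation test come from exchanging the group labels of the 6 libraries. Alternatives were RLE and upper-quartile factors, no filter, DESeq2 1.42.0, limma-voom (limma 3.58.1), each library left out, WT 5 and KO 4 left out or given a term, and, added after seeing the data, a lowess offset (span 0.3) on the GC content of each gene's longest transcript and, for levels, that transcript's length. The steps were tested on simulated data. Protein lengths and transcript GC content came from GENCODE vM21 (GRCm38), whose coordinates for the 7 genes equal those of the table. Python 3.11.15 with pandas 2.3.3, biopython 1.88 and matplotlib 3.10.9 did the rest.

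The 7 genes and the lists were chosen with earlier results of these data known. Named genes are the 7 members, Slc39a14, of each group of related genes any that passed or else the 2 with the highest FPKM and any with an unadjusted p under 0.05, markers with the highest FPKM, and the 3 genes most like each member; others are said to be chosen after their values were seen. The design also listed 3 further related genes, the ratios that use them and 1 further marker; as a departure from it, these are not reported here and are left out of the counts over lists.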

Additional observations from a re-analysis of the deposited data

How the results depend on the processing

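No paired analysis was possible because the animal numbers of the WT and KO mice differ and no label ties a WT to a KO animal. The count of members called was 0 and that of related genes called was 0 under all 14 alternatives. Of 98 alternative log2 fold changes of the members 90 kept their sign, those of Cbln1, Cbln2 and Cbln3 under every alternative. With single libraries left out the log2 fold change ranged from -0.18 to 0.016 for Cbln4, from -0.088 to 0.049 for Grid1, from -0.25 to 0.039 for Nrxn2 and from -0.099 to 0.049 for Nrxn3. The count of members with an unadjusted p under 0.05 ranged from 0 to 1 with single libraries left out (Cbln1 without WT 5, Cbln2 without KO 2), and it was 1 without WT 5 and KO 4 (Cbln1). The count of all genes called was 0 to 28 with single libraries left out. It was 142 without the low-count filter, 45 by DESeq2, 40 without WT 5 and KO 4, 34 with a term for them and 21 with GC offsets; the cause was not tested.

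Differences in log2 ratios ranged, with single libraries left out, from -0.050 to 0.13 (Cbln3 to Cbln1), from -0.12 to 0.24 (Cbln4 to Cbln1) and from -0.15 to 0.31 (Nrxn3 to Nrxn2), and Cbln2 to Cbln1 was 0.062 without WT 5 and KO 4. Relative to granule cell markers the ranges were -0.076 to 0.031 for Cbln1, -0.036 to 0.061 for Cbln3, -0.093 to 0.17 for Cbln4, -0.11 to 0.13 for Nrxn2 and -0.026 to 0.20 for Nrxn3, and Nrxn2 was 0.018 without WT 5 and KO 4. Depth limits Cbln4 and, less so, Cbln2, whose counting errors were 15.1% and 9.29% in WT.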

Other observations

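Within Nrxn3, and on its strand, lies Gm48700 (chromosome 12, 90068099 to 90072373), a locus annotated as TEC, with no coding call. It was counted 31, 20 and 97 times in WT 1, 3 and 5, against 35, 67 and 14 times in KO 2, 4 and 6. The highest values were again those of WT 5 and KO 4. A further such locus inside Nrxn3, Gm48692, was counted 1, 5 and 14 times in the WT animals, against 1, 5 and 0 times in the KO animals. Both were named after their values were seen.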
